A study of Mus musculus with 12 samples.

Results

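The miRNAs described here are encoded inside the mouse Hox clusters. They are mature strands of the miR-10, miR-196 and miR-615 hairpins, without the 3p strands of miR-196a. They were chosen by name, and all 9 (mmu-mir-10a-5p, mmu-mir-10a-3p, mmu-mir-10b-5p, mmu-mir-10b-3p, mmu-mir-196a-5p, mmu-mir-196b-5p, mmu-mir-196b-3p, mmu-mir-615-3p and mmu-mir-615-5p) were found among the 1978 miRNAs of the count table. Small RNA had been sequenced from the colon and the whole blood of 6 C57BL/6 male mice, which gave 12 libraries. The DSS mice (1, 7 and 9) received dextran sulfate sodium, a salt that injures the colonic epithelium, at 1.5% (wt/vol) in the drinking water for 7 days. The control mice (2, 4 and 8) drank the same water without DSS, and all were sacrificed on day 8. The mice were 8 weeks old when obtained. DSS colitis is an acute chemical model, and each library holds RNA of a whole tissue, so fewer cells of a type and less of a miRNA per cell cannot be told apart. The deposited labels conflict with this grouping. The disease state field marks mice 1, 2 and 4 as colitis, whereas the figures of the study and the order of the normalized tables put mice 1, 7 and 9 in the DSS group, and that grouping was used. The source and tissue fields also name opposite tissues. Libraries with MC in the title were taken as colon and the others as blood, as the tissue field and the figures of the study give them. The DSS comparisons below rest on this choice, and none of these miRNAs passed the test in either tissue under the grouping of the disease state field.

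A miRNA hairpin is cut into a 5p and a 3p strand, and the strand that is loaded into Argonaute pairs with messenger RNAs through its seed (bases 2 to 8). The Hox clusters encode the transcription factors that give cells their position along the body axis, and their miRNAs are transcribed from the same chromosomal neighbourhoods and are known to target Hox messenger RNAs, as miR-196 does with Hoxb8. Adult tissues keep part of this positional code, and the colon is a posterior segment of the gut.

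The mature sequences show how the members form families, with the seed in capitals. The first pair are the main strands of miR-10, which share a seed with each other and with no other miRNA of the table.
miR-10a-5p: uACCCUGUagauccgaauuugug
miR-10b-5p: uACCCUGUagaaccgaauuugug
Counted from the 5′ end, miR-10a-5p differs from miR-10b-5p by U12A. The other strands of these hairpins do not share a seed and differ by A3G, U9A and A10U.
miR-10a-3p: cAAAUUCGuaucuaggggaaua
miR-10b-3p: cAGAUUCGauucuaggggaaua
The main strands of miR-196 also share a seed that no other miRNA of the table holds, and differ by A12C.
miR-196a-5p: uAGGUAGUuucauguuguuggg
miR-196b-5p: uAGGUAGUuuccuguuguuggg
The remaining members each have a seed of their own.
miR-196b-3p: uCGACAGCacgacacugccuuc
miR-615-3p: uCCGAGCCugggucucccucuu
miR-615-5p: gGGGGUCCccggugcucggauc
All 9 deposited sequences were identical to those of RefSeq (GRCm38.p6). Since the 5p strands of a family differ by 1 base, a read with an error at that base can be counted for the wrong paralog, and the split between paralogs is uncertain to that extent.

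The hairpins lie in all 4 Hox clusters (GRCm38, GENCODE annotation). Mir10a is on chromosome 11 (96317165 to 96317274, plus strand), in no annotated gene and 993 bp from Hoxb4. Mir10b is on chromosome 2 (74726070 to 74726137, plus strand), in an intron of Hoxd3 and Hoxd4. Mir196b is on chromosome 6 (52230081 to 52230165, minus strand), within an exon of noncoding transcripts of Hoxa9. Mir615 is on chromosome 15 (103014910 to 103015001, plus strand), in an intron of Hoxc5. miR-196a-5p has 2 source hairpins, Mir196a-1 on chromosome 11 (96265164 to 96265265, plus strand), 6192 bp from Hoxb9, and Mir196a-2 on chromosome 15 (102973350 to 102973434, plus strand), in an intron of a Hoxc5 transcript and 1457 bp from Hoxc10. Their hairpins are shown because the same 5p strand comes out of both while the 3p strands differ, with the mature strands in capitals.
Mir196a-1: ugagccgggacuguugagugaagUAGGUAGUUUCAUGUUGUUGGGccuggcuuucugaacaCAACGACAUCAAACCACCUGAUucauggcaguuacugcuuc
Mir196a-2: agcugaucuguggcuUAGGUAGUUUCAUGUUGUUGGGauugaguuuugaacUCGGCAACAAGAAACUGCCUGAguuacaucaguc
In colon, the 3p strand of the first copy, miR-196a-1-3p, had 6812 counts over the 6 libraries and that of the second, miR-196a-2-3p, had 2. The 3p reads therefore came almost wholly from the chromosome 11 copy, while the 5p reads cannot be divided between the copies.

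The colon libraries held 15060553 to 20106226 miRNA counts and the blood libraries 21127134 to 32944792. The erythroid pair miR-486a-5p and miR-486b-5p, which have the same mature sequence and nearly equal counts, took 74.7% to 83.0% of the count in blood. With each mature sequence counted once, this sequence took 59.2% to 71.0%. The 9 members together made up 9.36%, 6.32% and 2.45% of the colon count in DSS mice 1, 7 and 9, and 2.04% to 2.16% in the control mice. In blood they made up 0.0319% to 0.0640%, or 0.0522% to 0.103% with each mature sequence counted once, a change that left the colon shares at 2.04% to 9.40%. The blood levels below are relative to the totals as deposited. Levels are given as CPM (miRNA counts relative to the library total) after TMM scaling within a tissue unless stated otherwise, and since the mature strands are 22 or 23 bases long, no correction for length was made.

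In the control colon, miR-10a-5p was the most abundant member (14429 ± 541 CPM, SD, n = 3), followed by miR-10b-5p (5982 ± 90.7) and miR-196a-5p (1496 ± 220). miR-196b-5p (767 ± 101) came next. The 3p strands of miR-10 and both strands of miR-615 were far lower, with miR-10a-3p at 26.9 ± 1.04 CPM, miR-10b-3p at 7.79 ± 0.378 and miR-615-3p at 0.568 ± 0.223. In this order the libraries of neighbouring members did not overlap, except those of miR-615-3p and miR-196b-3p. miR-615-5p had no count in any control colon, which allows at most 0.165 to 0.196 CPM of the unscaled count per library (3 counts, counting error only).

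In the colon of DSS mice, the miR-10 strands and miR-615-3p were high in mice 1 and 7 and near the control level in mouse 9, whereas both miR-196 5p strands were lower than in the controls. miR-196b-5p alone passed the test (edgeR quasi-likelihood; a miRNA was called when its p, adjusted after Benjamini and Hochberg, did not exceed 0.05 and its fold change exceeded 1.5). Of the 9 members 7 passed the filter on low counts, and 1 of these 7 was called, against 10.1% of the 542 miRNAs tested. All 7 had an unadjusted p under 0.05, as did 170 of the 542. The median log2 fold change was 1.46 over the 7 members and 0.04 over all miRNAs tested. The filter keeps miRNAs by their counts without regard to group, but a member that is high only in DSS mice can pass through that group, so these counts do not describe all 9.

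miR-10a-5p was 67699, 38095 and 13135 CPM in DSS mice 1, 7 and 9, and 13830, 14572 and 14885 CPM in control mice 2, 4 and 8. Mice 1 and 7 were above every control and mouse 9 was below every control, so the groups overlapped. The log2 fold change was 1.46 ± 0.52 (SE), with an edgeR adjusted p of 0.111.

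miR-10b-5p followed the same order, at 31579, 21025 and 4729 CPM in DSS mice 1, 7 and 9. The control mice 2, 4 and 8 had 6085, 5951 and 5912 CPM, so mouse 9 again lay below all controls. Its log2 fold change was 1.68 ± 0.59 (edgeR adjusted p = 0.106).

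The 3p strands of the same hairpins, which are counted from reads of other sequence, were also highest in mice 1 and 7. miR-10a-3p was 96.2, 77.5 and 32.6 CPM in DSS mice 1, 7 and 9 and 26.9, 28.0 and 25.9 CPM in control mice 2, 4 and 8. Every DSS library was above every control library, and 22.5% of all miRNAs tested did likewise. The log2 fold change was 1.35 ± 0.37 (edgeR adjusted p = 0.0604). miR-10b-3p was 36.6, 30.2 and 7.66 CPM in DSS mice and 7.40, 8.15 and 7.83 CPM in control mice, in the same mouse order, and mouse 9 fell within the control range. Its log2 fold change was 1.67 ± 0.52 (edgeR adjusted p = 0.0850).

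miR-615-3p, from the Hoxc5 intron, had the widest fold change of the members on few reads. It had 103, 83 and 18 counts in DSS mice 1, 7 and 9 and 10, 12 and 5 counts in control mice 2, 4 and 8. After scaling these were 7.38, 4.68 and 0.697 CPM against 0.667, 0.725 and 0.313 CPM, and mouse 9 lay within the control range. The log2 fold change was 2.86 ± 0.84 (edgeR adjusted p = 0.0739). With control mouse 8 short of the minimum count of 10, this member passed the filter through the DSS libraries, where it was higher. The test is therefore no support beyond the counts themselves. miR-615-5p, the opposite strand, had 5, 8 and 0 counts in DSS mice 1, 7 and 9 and no count in the control mice, and was too low to test.

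miR-196a-5p moved the other way. It was 1210, 918 and 601 CPM in DSS mice 1, 7 and 9 and 1246, 1663 and 1579 CPM in control mice 2, 4 and 8. Every DSS library was below every control library, as for 16.1% of all miRNAs tested, but mouse 1 lay just under control mouse 2. The log2 fold change was -0.72 ± 0.26 (edgeR adjusted p = 0.116). Without mouse 1 it was -0.99 ± 0.21 and was called (edgeR adjusted p = 0.0409), and DESeq2 called it with all 6 libraries (adjusted p = 0.0314).

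miR-196b-5p fell in DSS colon. It was 412, 459 and 575 CPM in DSS mice 1, 7 and 9 and 673, 874 and 755 CPM in control mice 2, 4 and 8, with no overlap. The log2 fold change was -0.67 ± 0.17 (edgeR adjusted p = 0.0491), a value at the edge of the threshold. The call was lost when any library other than that of mouse 9 was left out (edgeR adjusted p up to 0.160), and was kept without mouse 9 (0.0429). It was also lost with RLE factors (adjusted p = 0.0522), with total counts alone (-0.42 ± 0.25, adjusted p = 0.291) and in the fit of 12 libraries (adjusted p = 0.204). The opposite strand, miR-196b-3p, had 10, 9 and 11 counts in DSS mice 1, 7 and 9 and 6, 3 and 4 in control mice 2, 4 and 8, and was too low to test.

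**Figure D1:**
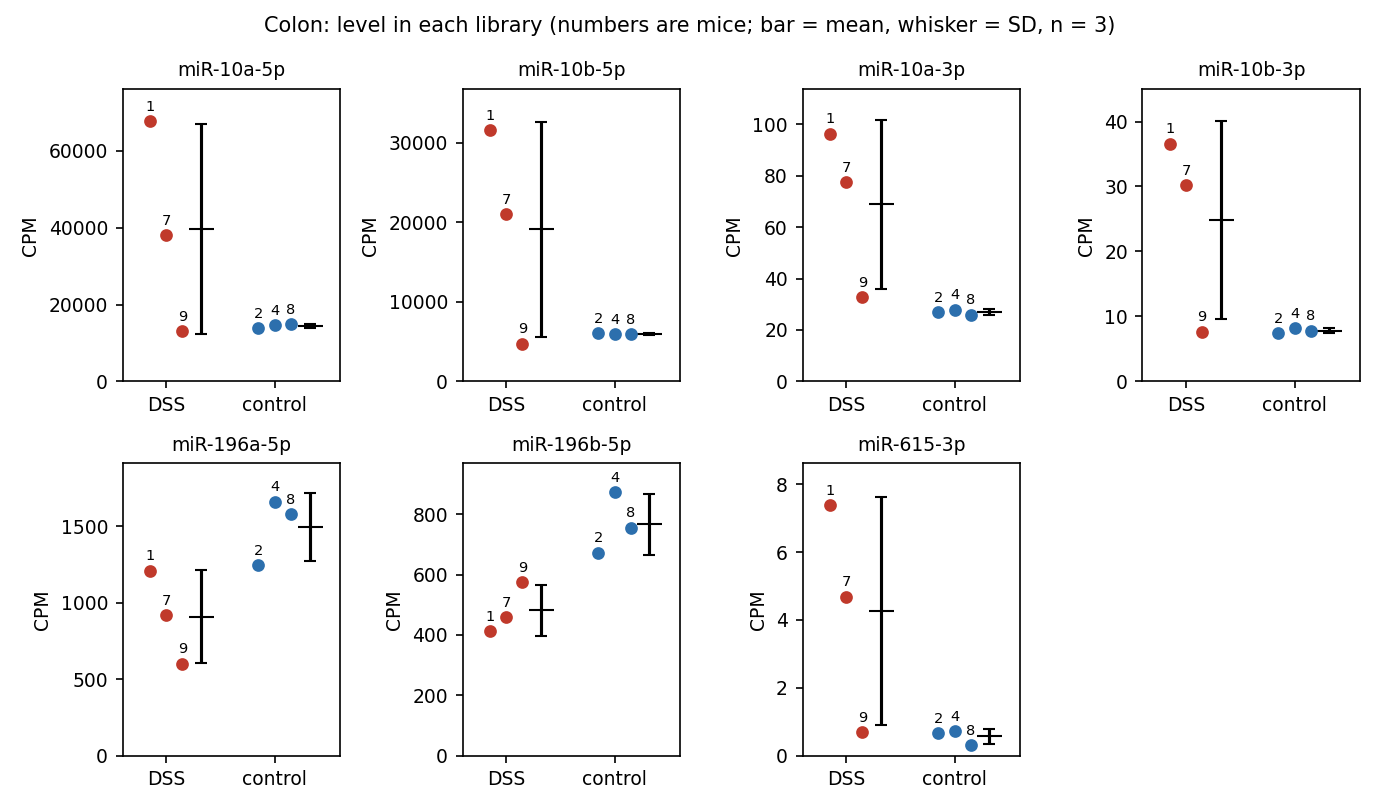
Level (CPM, linear axis from 0) of the 7 tested members in each colon library, with DSS mice in red, control mice in blue, the mouse number above each point, and the mean and SD of the 3 libraries as a bar and whisker. The miR-10 strands and miR-615-3p are high in DSS mice 1 and 7 and at or near the control level in mouse 9, while both miR-196 strands are lower in all 3 DSS mice.

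The calls of the miR-10 strands and miR-615-3p depended on the library of DSS mouse 9 and on the fit. Mouse 9 is the DSS library in which they were lowest, so leaving it out widens their difference by construction. Without it, edgeR called 5 members higher (4.74% of all miRNAs tested) and 1 lower, where 6.74% were called in either direction. The log2 fold changes were then 1.87 ± 0.25 for miR-10a-5p, 2.14 ± 0.19 for miR-10b-5p and 3.39 ± 0.40 for miR-615-3p, with adjusted p of 0.0189, 0.00395 and 0.0105. Leaving out mouse 1, the DSS library in which they were highest, lowered the log2 fold changes to 0.81, 1.09 and 2.18 in the same order, with edgeR adjusted p of 0.207, 0.204 and 0.122. A fit with 2 DSS mice assumes that they vary as the controls do. With all 6 libraries, edgeR without the filter on low counts also called 5 members higher and 2 lower, against 5.85% of all miRNAs, and with total counts alone it called miR-10a-3p, miR-10b-3p and miR-615-3p, against 8.67%. DESeq2, run on all 6 libraries, called 7 members against 13.7% of the miRNAs to which it gave an adjusted p, with adjusted p of 0.0138 for miR-10a-5p and 0.00548 for miR-196b-5p.

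**Figure D2:**
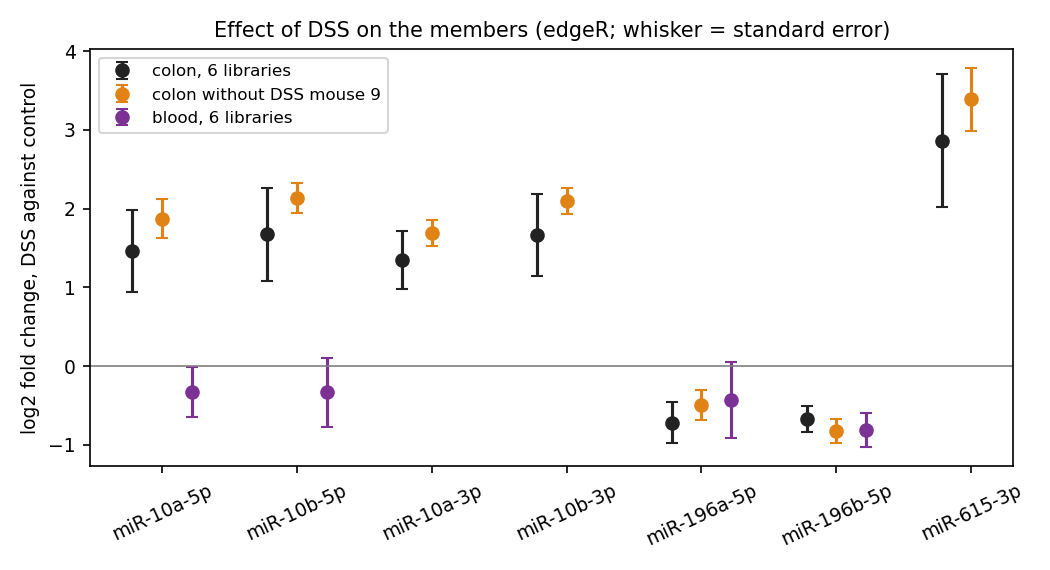
Log2 fold change of DSS against control (vertical axis, edgeR, whiskers are standard errors) for the members tested, in colon with all 6 libraries (black), in colon without DSS mouse 9 (orange) and in blood (purple, for the 4 members tested there). Leaving out mouse 9 moves miR-10a-5p from 1.46 to 1.87 and narrows its standard error from 0.52 to 0.25, and leaving out mouse 1 (not drawn) moves it to 0.81.

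Markers of cell types moved in the same colon libraries. The summed level of 9 epithelial miRNAs was 136210, 79849 and 55648 CPM in DSS mice 1, 7 and 9 and 162998 to 204144 CPM in the controls, and 4 of the 9 were called lower and none higher. The 7 leukocyte miRNAs summed to 1427, 2020 and 2641 CPM against 917 to 1297 CPM, and 4 of the 7 were called higher and none lower. The 5 fibroblast and stroma miRNAs summed to 5070 to 5775 CPM against 3544 to 3749 CPM, with 1 of 5 called higher. The 7 smooth muscle miRNAs summed to 260793 to 353994 CPM against 284539 to 363076 CPM, with none of 7 called by edgeR and none at an unadjusted p under 0.05. The 2 endothelial miRNAs summed to 6860 to 7339 CPM against 5144 to 5558 CPM and the 4 erythroid miRNAs to 1721 to 2571 CPM against 1690 to 2351 CPM, with none called by edgeR, although both endothelial miRNAs had an unadjusted p under 0.05. No marker of these lists was at 0 in every colon library. In blood the 9 epithelial miRNAs summed to 950 to 1324 CPM and the 4 erythroid miRNAs to 287237 to 577357 CPM, the reverse of their order in colon. The markers thus matched the tissues assigned to the libraries. Mouse 9, where miR-10 was lowest among DSS mice, had the lowest epithelial and the highest leukocyte sum. The part of cell composition in the levels of the members was not tested.

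Across the 6 colon libraries, the miRNAs outside the Hox clusters whose log2(CPM + 1) was most like that of miR-10b-5p were miR-1298-5p (Pearson r = 0.99), miR-100-5p (r = 0.98) and miR-326-3p (r = 0.97). For miR-615-3p they were miR-1298-5p (r = 0.98), miR-224-5p (r = 0.97) and miR-326-3p (r = 0.96). For miR-196b-5p they were miR-130b-5p (r = 0.98), miR-423-3p (r = 0.97) and miR-669a-5p (r = 0.96). Among the members, miR-10b-5p had r = 0.99 with miR-10a-5p, 0.98 with miR-615-3p, -0.02 with miR-196a-5p and -0.83 with miR-196b-5p. These values describe 6 libraries in which mice 1 and 7 stand apart, and the points share their DSS grouping.

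In blood no member was called by edgeR, and none of the 484 miRNAs tested was (0%). DESeq2 called 10 miRNAs (3.39% of those with an adjusted p), none of them a member. At an unadjusted p under 0.05 there were 56 miRNAs in edgeR, 1 of them a member. Of the 9 members 4 passed the filter.

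The member was miR-196b-5p, which had 4.56, 4.80 and 5.22 CPM in DSS mice 1, 7 and 9 and 8.40, 8.23 and 8.99 CPM in control mice 2, 4 and 8. The groups did not overlap, and 9.92% of all miRNAs tested were likewise lower in every DSS library. Its log2 fold change was -0.81 ± 0.22, with an adjusted p of 0.246 from edgeR and 0.0616 from DESeq2. With total counts alone, and in the fit of 12 libraries, no member had an unadjusted edgeR p under 0.05. These levels rest on 113 to 265 counts per library.

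The other members tested in blood overlapped between the groups. miR-10a-5p was 210, 473 and 470 CPM in DSS mice 1, 7 and 9 and 470, 536 and 441 CPM in control mice 2, 4 and 8. Its log2 fold change of -0.33 ± 0.32 (edgeR adjusted p = 0.736) rested on mouse 1, without which it was 0.02. miR-10b-5p was 24.4, 93.7 and 72.2 CPM against 92.5, 66.9 and 80.4 CPM, with a log2 fold change of -0.33 ± 0.43 (edgeR adjusted p = 0.833). Mouse 1, which had the highest miR-10 level of the 6 mice in colon, had the lowest in blood. The relatives of miR-10 described below were each lowest in this blood library too. Their sum was 499 CPM in mouse 1 and 831 to 1010 CPM in the controls. miR-196a-5p was 1.16, 1.23 and 0.969 CPM against 0.988, 0.691 and 2.75 CPM, and its log2 fold change of -0.43 ± 0.48 (edgeR adjusted p = 0.783) became 0.46 without control mouse 8. The other members were close to the detection limit, with 1 to 12 counts of miR-10a-3p, 0 to 3 of miR-10b-3p and 0 to 6 of miR-615-3p per library.

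**Figure D3:**
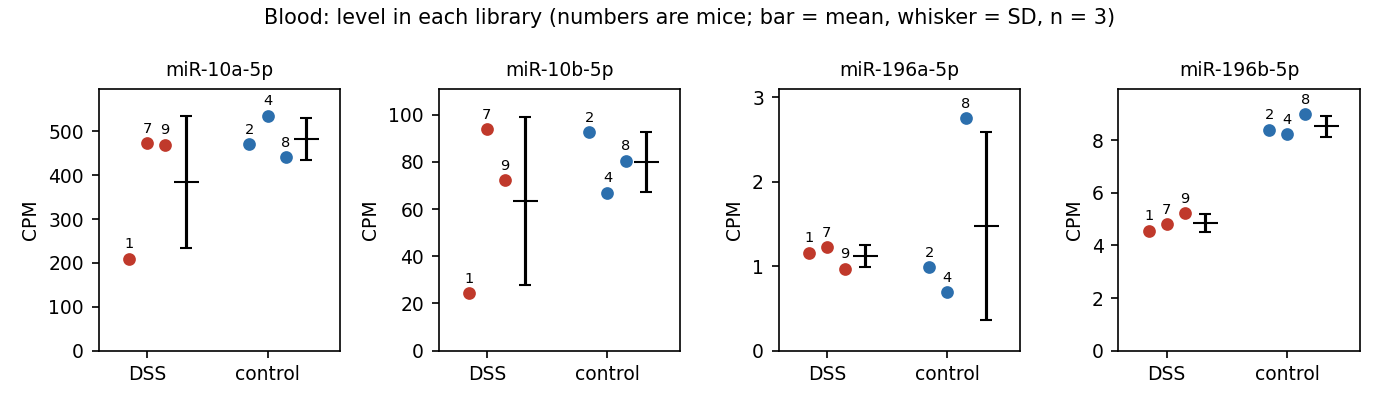
Level (CPM, linear axis from 0) of the 4 members tested in blood, in each library, with DSS mice in red, control mice in blue, the mouse number above each point, and the mean and SD of the 3 libraries as a bar and whisker. After TMM scaling miR-196b-5p separates the groups, at 4.56 to 5.22 CPM in DSS mice and 8.23 to 8.99 CPM in control mice, and the other 3 overlap.

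Whether the effect of DSS differed between tissues was tested as an interaction over the 12 libraries. No member was called by edgeR, and 0% of the 680 miRNAs tested were. At an unadjusted p under 0.05 there were 94 miRNAs, 4 of them members. For miR-10a-5p the effect in blood minus that in colon was -1.49 ± 0.60 on the log2 scale (edgeR adjusted p = 0.300), and for miR-10b-5p it was -1.73 ± 0.74 (adjusted p = 0.317). Without mouse 1 these were -0.66 and -0.85 (edgeR adjusted p = 0.624 for each). For miR-196b-5p, lower in DSS mice in both tissues, the difference was 0.17 ± 0.37 (edgeR adjusted p = 0.896). It rests on the scale common to the 12 libraries, so it need not equal the difference of the fold changes above. On that scale the means of DSS and control mice were 6.96 and 10.2 CPM in blood and 367 and 602 CPM in colon. With no filter on low counts, 4 members were called, against 1.92% of all miRNAs, with adjusted p of 0.0185 for miR-10a-5p and 0.00561 for miR-10b-5p. With the mouse as a replicate block, 1 of the 680 miRNAs was called and no member.

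Between tissues the members were lower in blood. Of the 8 members tested over the 12 libraries, all 8 were called lower by edgeR, against 51% of all miRNAs called lower, and the median log2 difference was -6.15 over the members, also with miR-196b-3p at the bound given below, and -0.86 over all 680 miRNAs. With total counts alone these medians were -6.88 and -1.59, with RLE factors -6.03 and -0.75, and with each mature sequence counted once -6.53 (7 members tested) and -0.66. The groups of 6 libraries did not overlap for 7 of the 8 members, all 7 being lower in blood, and 44.9% of the 680 miRNAs tested were likewise lower in every blood library. Members that are high in colon can pass the filter through the colon libraries alone. This held for miR-196b-3p (0 counts in blood), miR-10b-3p (0 to 3 per library), miR-615-3p (0 to 6) and miR-10a-3p (1 to 12). For these a lower level in blood was close to fixed by the filter, so the counts of members give no support beyond the values of each.

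On a scale common to the 12 libraries, miR-196a-5p had a lowest, median and highest level of 455, 952 and 1304 CPM in colon and 0.721, 1.49 and 3.88 CPM in blood, a log2 difference of -8.99 ± 0.46 (edgeR adjusted p = 5.07e-11). miR-196b-5p had 310, 485 and 685 CPM in colon and 5.91, 8.08 and 12.7 CPM in blood, a smaller difference of -5.80 ± 0.23 (edgeR adjusted p = 5.50e-12). For miR-10a-5p the values were 9934, 11471 and 50962 CPM in colon and 349, 546 and 728 CPM in blood (log2 difference -5.07 ± 0.36, edgeR adjusted p = 1.99e-09). miR-10b-5p differed by -6.49 ± 0.47. The values of miR-10a-3p (-6.55 ± 0.42) and miR-10b-3p (-7.29 ± 0.54) describe strands that passed the filter through colon alone. Single mice moved some of these values, with -8.56 for miR-10b-3p without mouse 7 and -9.64 for miR-196a-5p without mouse 8.

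The low members followed. miR-615-3p had 231 counts over the colon libraries and 13 over the blood libraries, and 1 blood library, that of control mouse 8, reached the colon range. Its log2 difference was -3.52 ± 0.66, but it passed the filter through the colon libraries alone, so the test gives no support. Without mouse 8 the difference was -4.24. miR-196b-3p had 43 counts in colon and none in blood, so that it was at least 13.2-fold higher in colon relative to the total with each mature sequence counted once (3 counts over the 6 blood libraries as the floor), and at least 21.8-fold relative to the total as deposited. miR-615-5p had 13 counts in colon, all in DSS mice 1 and 7, and 1 in blood.

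**Figure D4:**
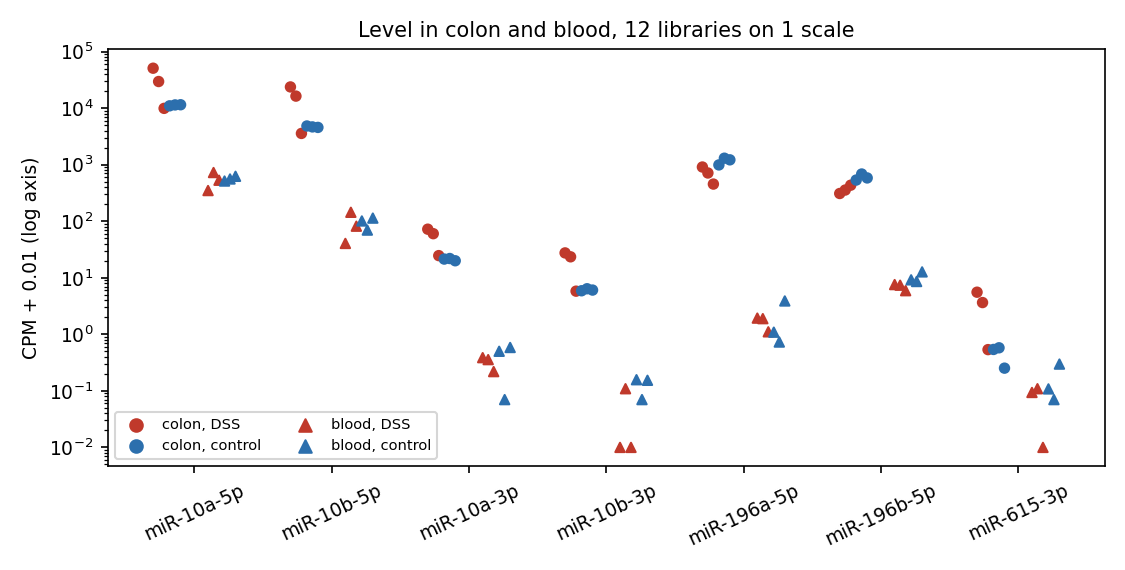
Level of 7 members in the 12 libraries (CPM + 0.01, log axis, all libraries on 1 scale), with colon as circles, blood as triangles, DSS mice in red and control mice in blue. miR-196a-5p lies above miR-196b-5p in every colon library and below it in every blood library.

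Ratios within a library need no scaling between libraries, and they show that the paralogs differed between tissues by unequal amounts. The ratio of miR-196a-5p to miR-196b-5p counts was 2.94, 2.002 and 1.05 in the colon of DSS mice 1, 7 and 9 and 1.85, 1.90 and 2.09 in that of control mice 2, 4 and 8. In blood it was 0.256, 0.258 and 0.189 in the DSS mice and 0.120, 0.0871 and 0.307 in the control mice. miR-196a-5p was thus the more abundant paralog in every colon library and the less abundant in every blood library. The ratio was 10.2-fold lower in blood, in 6 of 6 mice (exact permutation test, two-sided, p = 0.00216, the smallest possible, 0.00289 adjusted over the 4 ratios tested).

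The ratio of miR-10a-5p to miR-10b-5p moved the other way. It was 2.14, 1.81 and 2.78 in the colon of DSS mice 1, 7 and 9 and 2.27, 2.45 and 2.52 in the control mice, and 8.62, 5.05 and 6.50 against 5.08, 8.02 and 5.49 in blood. It was 2.73-fold higher in blood, again in 6 of 6 mice (sign-flip p within mice = 0.0312). The exact two-sided permutation test over the 12 libraries gave p = 0.00216 (adjusted p = 0.00289). The ratio of miR-10a-5p to miR-196a-5p was 18.4-fold higher in blood, in 6 of 6 mice, with the same sign-flip and exact permutation p. That of miR-10b-5p to miR-196b-5p overlapped between the tissues (exact permutation p = 0.405).

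**Figure D5:**
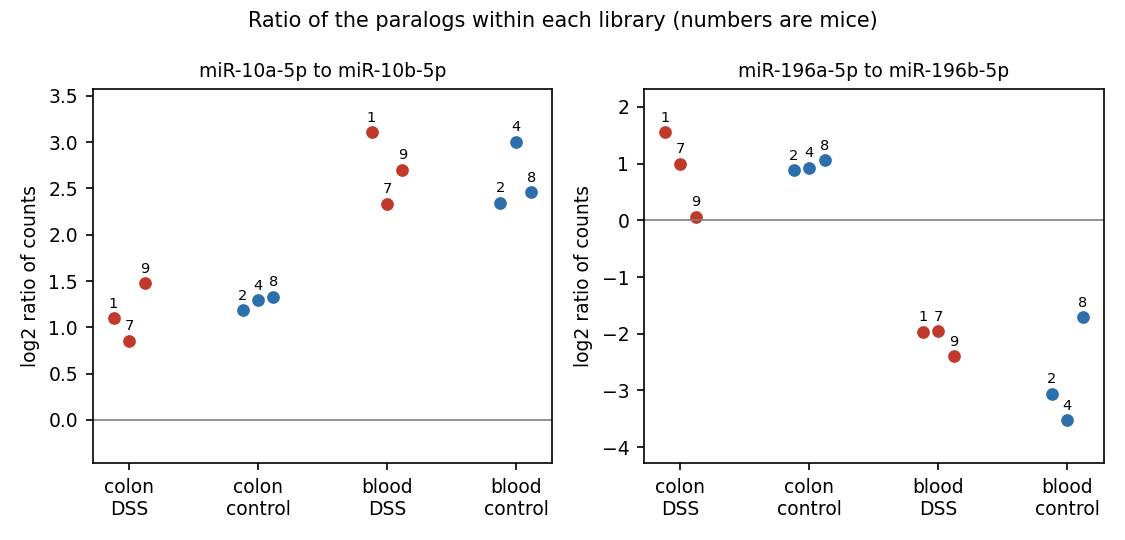
Log2 ratio of the counts of miR-10a-5p to miR-10b-5p and of miR-196a-5p to miR-196b-5p in each library (vertical axes), with DSS mice in red, control mice in blue and the mouse number above each point. Values above 0 mean that the first paralog had more counts, which holds for miR-196a-5p in colon and not in blood.

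Between DSS and control mice these paralog ratios overlapped in both tissues, and with 3 mice a group an exact permutation test cannot go below 0.1. The 5p to 3p ratios of a hairpin also overlapped. In colon, miR-10a-5p had 703, 491 and 402 times the counts of miR-10a-3p in DSS mice 1, 7 and 9 and 513 to 574 times in the controls. miR-10b-5p had 616 to 862 times the counts of miR-10b-3p in DSS mice and 727 to 819 times in the controls. The ratio of miR-10a-5p to miR-196a-5p did separate the groups in colon, at 55.9, 41.5 and 21.8 in DSS mice 1, 7 and 9 and 11.1, 8.76 and 9.43 in control mice 2, 4 and 8. This 3.81-fold difference had an exact two-sided permutation p of 0.1, the smallest possible, and 0.6 after adjustment over 6 ratios. The ratio of miR-10b-5p to miR-196b-5p did not separate the groups. It was 76.7, 45.8 and 8.23 in DSS mice 1, 7 and 9 and 9.04, 6.81 and 7.83 in control mice 2, 4 and 8, a 3.92-fold difference (exact permutation p = 0.2) with mouse 9 inside the control range. Mouse 9, whose miR-10a-5p level alone was below the controls, lay above them by the ratio of miR-10a-5p to miR-196a-5p, and its miR-196a-5p level was the lowest of the 6.

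The relatives of miR-10 outside the Hox clusters were compared as a list. miR-99a-5p, miR-99b-5p and miR-100-5p carry the seed ACCCGUA in place of ACCCUGU, and miR-125a-5p and miR-125b-5p are grouped with them by ancestry.
miR-100-5p: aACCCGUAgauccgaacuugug
None of these 5 was called in either tissue by edgeR, and none had an unadjusted p under 0.05. Their median log2 fold change in colon was 0.23. miR-100-5p was 7560, 7123 and 4699 CPM in DSS mice 1, 7 and 9 and 5015, 4923 and 5428 CPM in control mice 2, 4 and 8. Mice 1 and 7 were above the controls and mouse 9 below them, the order seen for miR-10a-5p and miR-10b-5p, with a log2 fold change of 0.34 ± 0.20 (edgeR adjusted p = 0.279). miR-99a-5p showed this order too, at 7422, 6980 and 5406 CPM against 5447, 5790 and 6023 CPM, and the other relatives of the list did not. miR-196a-1-3p, the 3p strand from the chromosome 11 copy of miR-196a, lies inside a Hox cluster but is not among the members. It was 85.1, 50.7 and 34.3 CPM in DSS mice and 77.3, 85.3 and 79.3 CPM in control mice, and its log2 fold change was -0.51 ± 0.31 (edgeR adjusted p = 0.304). Without mouse 1 it was -0.94 (edgeR adjusted p = 0.0413).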

How the data were processed

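Small RNA libraries from colon and whole blood of 6 mice were analysed (3 DSS and 3 control mice). Per the study's methods, the authors counted reads of mature mouse miRNAs of miRBase with miRDeep2, and they deposited these raw counts for all 12 libraries. A normalized signal, in which counts had been scaled by DESeq2 size factors within a tissue, was deposited as well and was used for an alternative only. The build named in the labels is GRCm38. No column of per-sample values was left unused (0).

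Counts were tested with edgeR 4.0.16 (filterByExpr with a minimum count of 10, TMM factors, glmQLFit and glmQLFTest) in R 4.3.3. Each test was fitted over all miRNAs, and calls needed a p of 0.05 or less after Benjamini-Hochberg adjustment and a fold change above 1.5. Standard errors were derived from the F statistic (log2 fold change over its root). Ratios within a library were log2 of counts plus 0.5, compared with exact permutation tests in SciPy 1.17.1, and a ratio with under 10 counts of either miRNA in any library used was given as counts only. The scripts were tested on simulated data. Each library of a group comes from another mouse.

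Alternatives were DESeq2 1.42.0, RLE factors, total counts alone, no filter, 1 fit over 12 libraries, limma 3.58.1 on log2(signal + 1), leaving out each mouse, the mouse as a block, each mature sequence counted once, a pseudocount of 1 and the grouping of the disease state labels. Named miRNAs were all members, a list of relatives, and for miR-10b-5p, miR-196b-5p and miR-615-3p each the 3 others most correlated with it in colon. The members and lists were chosen with earlier results of these data known. Whether mouse numbers pair the tissues was checked by correlating deviations from the group means over 229 miRNAs. The 2 tissues were paired by mouse because the numbers in the titles are those of the animals, and the correlations were -0.37 to 0.13. Intervals and floors cover counting error only. Sequences were copied from the deposited tables and from RefSeq.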

Additional observations from a re-analysis of the deposited data

How the results depend on the processing

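In colon, 1 member was called by edgeR. The number was 7 with DESeq2 and 7 with no filter on low counts, 3 with total counts alone, 0 with RLE factors, 0 with all 12 libraries in 1 fit and 0 under the grouping of the disease state labels, and 0 to 6 when 1 mouse was left out (6 without mouse 9, miR-196a-5p alone without mouse 1 and 0 without mouse 2, 4, 7 or 8). Over all miRNAs 55 of 542 were called, against 74 with DESeq2, 76 of 1300 with no filter, 47 with total counts alone, 16 with RLE factors, 0 in the fit of 12 libraries, 0 under the label grouping, and 0 to 44 when 1 mouse was left out. Total counts alone moved the median log2 fold change of all miRNAs from 0.04 to 0.26, and the 7 members tested kept their directions under it and under RLE factors. In blood no miRNA was called, against 10 with DESeq2, 25 with no filter, 1 in the fit of 12 libraries and 0 to 1 when 1 mouse was left out, and no member was called under any of these. For the difference between tissues no member was called, against 4 with no filter. Over all miRNAs it was 0, against 8 with RLE factors, 27 with no filter, 1 with the mouse as replicate block and 0 to 2 when 1 mouse was left out. The replicate block changed no call of a member, and with it all 8 members tested remained lower in blood. Differences within mice gave a sign-flip p of 0.0312, the smallest possible, for each of the 3 ratios that differed between tissues.

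Directions reversed as follows, none of them past the threshold. Under the label grouping, the log2 fold changes in colon became 0.41 for miR-196a-5p and 0.13 for miR-196b-5p, that in blood 0.15 for miR-196b-5p, and the tissue differences -1.29 and -0.19 for miR-196a-5p and miR-196b-5p. The latter was also -0.23 with RLE factors and -0.19 with total counts alone, and when 1 mouse was left out it ranged from -0.038 to 0.44. In blood, leaving out 1 mouse gave -0.48 to 0.019 for miR-10a-5p, -0.70 to 0.11 for miR-10b-5p and -0.69 to 0.46 for miR-196a-5p. Log2 ratio differences under the label grouping were 0.24 for miR-10a-5p to miR-10a-3p, 0.22 for miR-10b-5p to miR-10b-3p, 0.41 for miR-196a-5p to miR-196b-5p and -0.22 for miR-10a-5p to miR-196a-5p in colon, and -0.83, 0.37 and -0.78 for miR-196a-5p to miR-196b-5p, miR-10a-5p to miR-196a-5p and miR-10b-5p to miR-196b-5p in blood. When 1 mouse was left out they ranged from -0.27 to 0.13 (miR-10a-5p to miR-10a-3p), -0.29 to 0.017 (miR-10a-5p to miR-10b-5p), -0.23 to 0.017 (miR-10b-5p to miR-10b-3p) and -0.43 to 0.32 (miR-196a-5p to miR-196b-5p) in colon. In blood they ranged from -0.083 to 0.31 (miR-10a-5p to miR-10b-5p), -0.89 to 0.23 (miR-10a-5p to miR-196a-5p) and -0.11 to 0.82 (miR-10b-5p to miR-196b-5p). Between tissues the last ratio ranged from -0.87 to 0.046. The causes were not tested. Depth limits miR-615-5p, miR-196b-3p and the 3p strands in blood, which had 0 to 12 counts per library there.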
